A study of Mus musculus with 9 samples.

Results

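The genes described here encode the SNARE proteins that fuse secretory granules with the plasma membrane of islet cells, together with the proteins that tether, dock, prime, trigger and recycle that machinery. They were chosen by symbol from a list of 42 genes, of which 41 have a row among the 52459 gene symbols of the count table. Vamp7 has no row and was not analysed here. All 41 passed the filter on low counts and were tested among 16826 genes. Rims1 passed it through the db/db libraries, where it was highest, and was not tested with WT and db/+ fitted alone. It is counted among the higher genes below.

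RNA was sequenced from islets of Langerhans, the hormone-secreting cell clusters of the pancreas, of 12-week-old mice. The 3 groups of 3 libraries each were wild type (WT), heterozygous db/+ and homozygous db/db, and all 9 carried the strain label BKS.Cg-Dock7m +/+ Leprdb/J. The db mutation lies in Lepr, the gene of the leptin receptor, and homozygotes serve widely as a model of obesity and diabetes. The labels do not state whether each library came from 1 mouse or from a pool, or the sex of the mice, so p-values measure the spread between these libraries only.

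A vesicle SNARE of the VAMP family and target-membrane SNAREs of the syntaxin and SNAP-25 families zip into a bundle that pulls the granule and plasma membranes together. In beta cells, Rab GTPases and their effectors bring insulin granules to the membrane, Munc13, CAPS and RIM proteins prime them, and synaptotagmins couple fusion to the rise in calcium that follows glucose uptake. Afterwards the ATPase NSF and its SNAP adaptors take the spent bundles apart.

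Library totals ranged from 8860024 to 11734886 counts, and 3 counts corresponded to 0.238 to 0.412 CPM, which covers counting error only. CPM, the unit of every level here, are counts-per-million values on TMM-normalised library sizes. WT 1, WT 3 and db/db 1 held both Xist and Y-linked counts. Xist was at 0.722 CPM or less in WT 2 and db/+, and the summed Y-linked genes reached 1.11 CPM in db/db 2 and 0.108 CPM in db/db 3. Xist lay at 308 to 948 CPM in db/db. The Y-linked sums were 373 to 417 CPM in db/+ and at most 176 CPM in db/db. Between db/db and db/+, Xist and Y-linked counts therefore cannot be told apart from genotype. Gm42418 and Lars2, which overlap ribosomal RNA sequence, took 17.9% and 13.3% of counts in db/db 1 and db/db 2. Their share was 1.89% to 2.58% in WT, 0.022% to 0.0237% in db/+ and 0.0558% in db/db 3. WT and db/+ thus differed without overlap. The bearing of this on their comparison was not tested beyond leaving out both genes. Lepr lay between 1.52 and 9.47 CPM in all libraries, and its whole-gene count does not check the genotype. Summed acinar markers (13 genes) ran from 5808 to 11087 CPM in WT, 13461 to 30680 CPM in db/+ and 16007 to 44677 CPM in db/db. Beta cell markers (6 genes) summed to 78720 to 115699 CPM in WT, 98181 to 109640 CPM in db/+ and 90496 to 122693 CPM in db/db. Ins1, Ins2 and Iapp made up most of these sums. Against WT, Mafa, Slc2a2 and Ucn3 were 9.15-fold, 7.51-fold and 3.37-fold lower in db/db. Iapp was 2.37-fold higher, and Ins1 and Ins2 did not pass. Alpha cell markers (6 genes) lay at 10638 to 19171 CPM in WT, 16975 to 20420 CPM in db/+ and 9469 to 10973 CPM in db/db. In bulk islets, fewer cells of a type and less RNA per cell cannot be told apart.

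Against WT, 24 of the 41 exocytosis genes changed in db/db islets, 11 higher and 13 lower. The fallen genes included Sytl4, which encodes the granule-docking protein granuphilin, and Stxbp5l, which encodes the fusion inhibitor tomosyn-2. The risen ones included the GTPase gene Rab3d, the synaptotagmin gene Syt5 and the priming gene Cadps2. Over all tested genes 41.7% changed, 21.8% higher and 19.9% lower. Among the 9607 tested genes with a mean of at least 10 CPM, 50.7% changed (23.2% higher and 27.5% lower), and of the 37 exocytosis genes at that level 10 were higher and 13 lower (62.2%). The median log2 fold change was -0.04 over the exocytosis genes and 0.01 over all tested genes, so the list as a whole leaned neither way. With library totals in place of TMM factors, which moved the median of all genes by -0.22, the split was 6 higher and 20 lower. Over all tested genes it was then 2176 higher and 5317 lower.

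Against db/+, 23 of the 41 changed, 12 higher and 11 lower, where 40.3% of all tested genes changed (20.6% higher and 19.7% lower). Of the 37 genes at 10 CPM or more 11 were higher and 11 lower, against 49.4% of tested genes at that level (21.9% higher and 27.5% lower). With library totals the split was 7 higher and 18 lower, and 2011 higher and 5265 lower over all tested genes. This comparison shares the db/db libraries with the one above. Between db/+ and WT 1 of the 41, Pclo, was lower and 0 were higher, against 1.43% of all tested genes (0.606% higher and 0.82% lower). At 10 CPM or more the share of tested genes was 2.38% (0.978% higher and 1.41% lower). By unadjusted p under 0.05 the number was 6 of the 41 exocytosis genes and 2620 of the 16826 tested genes. The plot of fold changes by role shows that most roles held both risen and fallen genes.

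**Figure D1:**
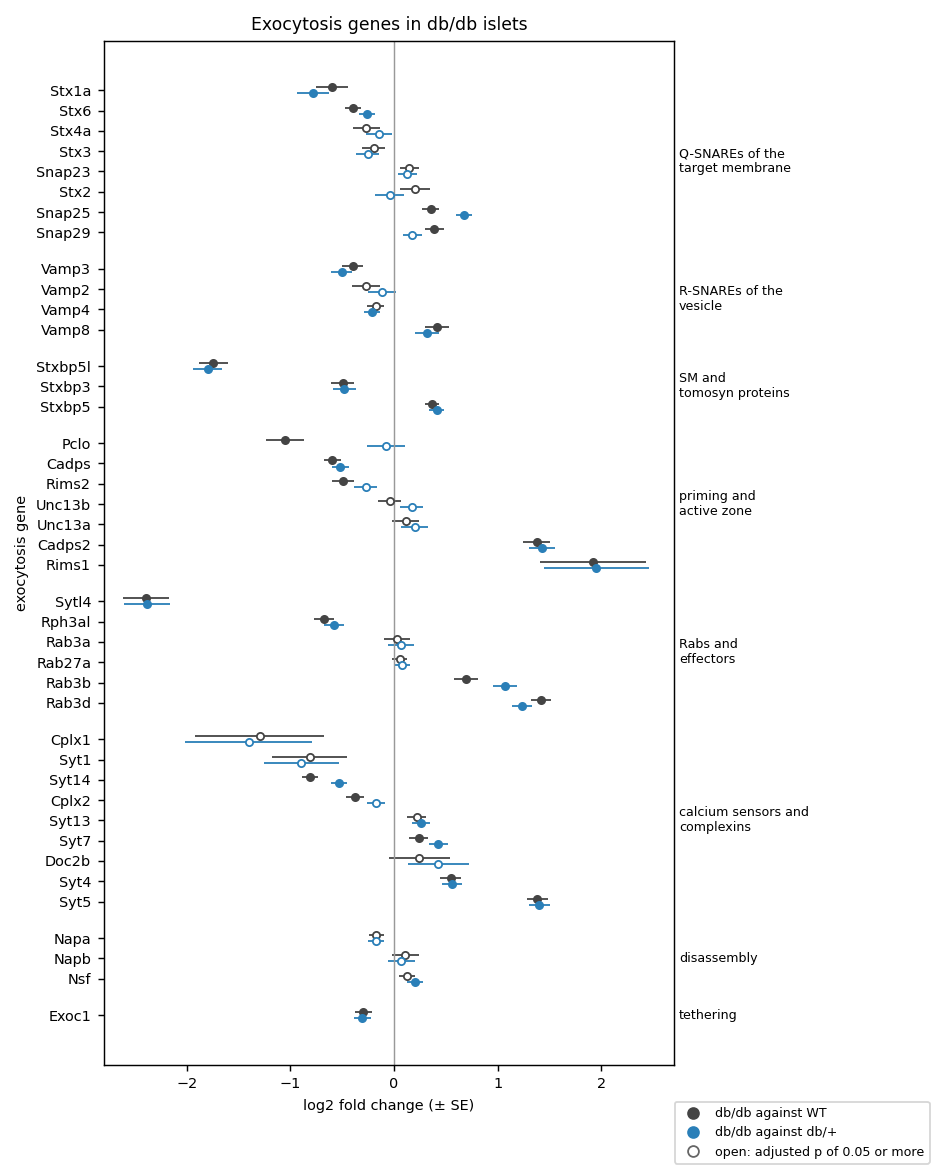
Log2 fold change with its standard error (x axis) of the 41 exocytosis genes (y axis), grouped by role, for db/db against WT (grey) and against db/+ (blue), with filled points for an adjusted p under 0.05. Sytl4 and Stxbp5l lie far to the left, and Rab3d, Syt5 and Cadps2 lie to the right in both comparisons. Rims1 also lies to the right, but it passed the low-count filter through the db/db libraries.

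Promoter sequences are shown for 5 of the 9 genes with the smallest adjusted p against WT, those for which a stretch outside the gene could be read, so that the base composition of 3 that fell and 2 that rose can be compared. Each is the stretch of 120 bases just upstream of the annotated gene, from RefSeq on GRCm38.p6 (the assembly of mm10), written 5′ to 3′ on the strand of the gene. Capitals mark the GC box GGGCGG on either strand, the one searched motif that these stretches held.
Sytl4 (fell, chrX:133981822-133981941, minus strand): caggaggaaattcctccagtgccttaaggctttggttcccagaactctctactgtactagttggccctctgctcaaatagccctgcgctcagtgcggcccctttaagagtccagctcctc
Stxbp5l (fell, chr16:37385016-37385135, minus strand): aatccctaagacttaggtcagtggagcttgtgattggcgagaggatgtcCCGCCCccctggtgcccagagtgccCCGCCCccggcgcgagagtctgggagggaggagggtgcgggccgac
Syt14 (fell, chr1:193035872-193035991, minus strand): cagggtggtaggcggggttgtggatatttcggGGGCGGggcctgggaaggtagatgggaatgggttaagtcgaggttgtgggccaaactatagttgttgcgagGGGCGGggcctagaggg
Rab3d (rose, chr9:21918200-21918319, minus strand): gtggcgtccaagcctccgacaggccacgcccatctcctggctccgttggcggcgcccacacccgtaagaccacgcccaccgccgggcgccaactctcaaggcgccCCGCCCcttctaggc
Rab3b (rose, chr4:108878950-108879069, plus strand): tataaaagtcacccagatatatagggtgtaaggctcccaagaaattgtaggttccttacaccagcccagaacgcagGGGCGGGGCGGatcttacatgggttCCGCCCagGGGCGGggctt

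Among the fallen genes the GC content of the stretch was 54.2% with 2 CpG and no GC box for Sytl4, 67.5% with 8 CpG for Stxbp5l and 60.8% with 6 CpG for Syt14. Among the risen genes it was 72.5% with 13 CpG for Rab3d and 55.0% with 5 CpG for Rab3b, so the ranges overlapped. RefSeq promoter windows, from 250 bases before to 50 after a start site, were matched for 32 of the 41 genes. The median GC content of 1 window per gene was 62.7%, against 52.7% over all 32851 windows. It was 71.0% (range 46.7% to 79.7%) in the 7 windows of genes that rose against WT and 63.3% (range 53.0% to 71.3%) in the 11 of genes that fell, and these ranges overlapped. The GC box stood upstream of 23 of the 32 genes (35.7% of all windows held it), and of 5 of 7 risen and 8 of 11 fallen genes, where a gene with several windows counted if any of them held it. The E-box CACGTG stood in 9 of 32 (7.15% of all windows), and the E-box CATCTG in 2 (17.2%), those of Cadps and Pclo. The cAMP response element TGACGTCA stood in 2 (1.79%), Stxbp3 and Napa, and the unfolded protein response element TGACGTGG in 0 (0.676%). The MARE core TGCTGAC stood in 1 (4.67%), Napb, the left part TTCAGCACC of the RE1 element in 1 (0.371%), Unc13a, and the endoplasmic reticulum stress element, with both ends fixed around a free spacer, in 0 (0.119%). Both strands were searched, and GGGCGG copies can overlap each other. These are matches of letters and not binding sites.

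Of the 8 target-membrane SNARE genes, 2 rose and 2 fell against WT, with log2 fold changes between -0.60 and 0.39. Counts per role here and below stand against 41.7% of all tested genes changed in db/db against WT (50.7% at 10 CPM or more). No role was tested as a list. In parentheses here and below stand the log2 fold change ± SE and the Benjamini-Hochberg adjusted p of the edgeR fit. Snap25 (chromosome 2, 136713439 to 136782428), the classical partner of syntaxin 1A in insulin release, stood at 147, 154 and 179.6 CPM in the WT libraries, 133, 123 and 128 CPM in the db/+ libraries and 211, 198 and 204 CPM in the db/db libraries. All 3 db/db libraries lay above WT and all 3 db/+ libraries below WT. It rose against WT (0.35 ± 0.08, adjusted p = 0.00352) and against db/+ (0.67 ± 0.08, adjusted p = 2.28e-05), while db/+ against WT did not pass (-0.32 ± 0.08, adjusted p = 0.0718, called without db/db 1 at 0.0409). Snap29, which acts in fusion of autophagosomes and endosomes, was at 33.4, 35.8 and 28.9 CPM in the WT libraries, 37.03, 39.1 and 37.4 CPM in the db/+ libraries and 42.3, 43.1 and 43.1 CPM in the db/db libraries. It rose against WT (0.39 ± 0.09, adjusted p = 0.00414) but did not pass against db/+ (0.18 ± 0.09, adjusted p = 0.135), although the groups did not overlap.

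Stx1a, the syntaxin of the insulin granule fusion site, was low at 10.2, 12.4 and 10.2 CPM in the WT libraries, 11.2, 14.01 and 11.9 CPM in the db/+ libraries and 6.998, 7.68 and 6.90 CPM in the db/db libraries. Every db/db library was below every other library (against WT -0.60 ± 0.15, adjusted p = 0.00689, and against db/+ -0.78 ± 0.15, adjusted p = 0.00113). Stx6, a syntaxin of the trans-Golgi network, was at 62.8, 66.3 and 71.9 CPM in the WT libraries, 61.5, 60.7 and 60.8 CPM in the db/+ libraries and 49.5, 50.5 and 52.8 CPM in the db/db libraries. It fell against WT (-0.39 ± 0.08, adjusted p = 0.00107) and against db/+ (-0.26 ± 0.08, adjusted p = 0.0152), a call that ended without db/db 1 (adjusted p = 0.0522). Snap23, the widely expressed relative of Snap25, did not pass (0.15 ± 0.09, adjusted p = 0.224 against WT). Stx2 (0.20 ± 0.14), Stx3 (-0.19 ± 0.11) and Stx4a (-0.27 ± 0.13), plasma membrane syntaxins, did not pass either. Stx4a passed without WT 1 (adjusted p = 0.0439), and Stx3 passed against db/+ without db/db 2 (adjusted p = 0.039). Per kilobase of exon, the ratio of Snap25 to Snap23 was 2.21, 2.07 and 2.58 in the WT libraries, 1.83, 1.73 and 1.84 in the db/+ libraries and 2.64, 2.92 and 2.40 in the db/db libraries. The ratio was lowest in db/+, and the WT and db/db ranges overlapped. With acinar markers as a term the 4 calls against WT in this role were lost.

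Of the 4 vesicle SNAREs in the table, Vamp8 rose and Vamp3 fell against WT. Vamp2, the partner of Snap25 and Stx1a on insulin granules, stood at 47.4, 51.2 and 70.9 CPM in the WT libraries, 48.3, 52.6 and 50.7 CPM in the db/+ libraries and 47.8, 50.3 and 42.03 CPM in the db/db libraries, with overlapping groups (-0.27 ± 0.13, adjusted p = 0.12 against WT, called without WT 1 at 0.0327). Vamp3, a SNARE of recycling endosomes, was at 61.4, 62.8 and 59.4 CPM in the WT libraries, 76.2, 62.3 and 59.5 CPM in the db/+ libraries and 42.3, 46.8 and 50.1 CPM in the db/db libraries. Its db/db libraries lay below all others (-0.40 ± 0.10, adjusted p = 0.00616 against WT and -0.51 ± 0.10, adjusted p = 0.00126 against db/+).

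Vamp8, known from endosomes and from zymogen granules of acinar cells, was at 34.8, 36.5 and 41.96 CPM in the WT libraries, 45.3, 34.5 and 41.8 CPM in the db/+ libraries and 55.8, 45.5 and 50 CPM in the db/db libraries. All db/db libraries exceeded the WT and db/+ libraries (0.42 ± 0.12, adjusted p = 0.0103 against WT). The call against db/+ (0.31 ± 0.11, adjusted p = 0.0421) was lost on removing db/db 1, db/db 3, db/+ 2, db/+ 3 or WT 2 (adjusted p between 0.0247 and 0.192 with single libraries removed). With acinar markers as a term neither call of Vamp8 passed the threshold. Vamp4, a SNARE of the trans-Golgi network, was at 72.8, 86.96 and 84.5 CPM in the WT libraries, 84.2, 83.2 and 83.1 CPM in the db/+ libraries and 69.8, 73.3 and 72.4 CPM in the db/db libraries. It did not pass against WT (-0.18 ± 0.08, adjusted p = 0.0811, called without WT 1 at 0.0158). Against db/+ it fell (-0.22 ± 0.08, adjusted p = 0.0396), and that call ended when any 1 db/+ or db/db library was left out (adjusted p between 0.0175 and 0.11 with single libraries removed).

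The 3 regulators that bind syntaxins all changed in both db/db comparisons, in a role too small to be read as a set. Stxbp5l (chromosome 16, 37107075 to 37385015) encodes tomosyn-2, which occupies SNAREs in place of VAMP proteins and restrains insulin secretion. Its levels were 42.8, 36.9 and 41.5 CPM in the WT libraries, 45.4, 42.5 and 37.7 CPM in the db/+ libraries and 10.8, 15.2 and 10.1 CPM in the db/db libraries. The db/db libraries lay far below the other 6, a 3.35-fold lower level than WT (-1.74 ± 0.14, adjusted p = 6.30e-07) and a 3.47-fold lower one than db/+ (-1.80 ± 0.14, adjusted p = 4.62e-07). Its close relative Stxbp5, the gene of tomosyn-1, went the other way, at 88.6, 90.8 and 96.1 CPM in the WT libraries, 84.2, 92.1 and 90.6 CPM in the db/+ libraries and 119.2, 121 and 115 CPM in the db/db libraries. The db/db libraries were again apart (0.37 ± 0.07, adjusted p = 9.36e-04 against WT and 0.41 ± 0.07, adjusted p = 3.95e-04 against db/+). Stxbp3, which encodes Munc18c, the partner of syntaxin 4, was at 30.1, 28.7 and 32 CPM in the WT libraries, 30.6, 33.1 and 26.1 CPM in the db/+ libraries and 23.5, 20.6 and 20.4 CPM in the db/db libraries. It fell in both comparisons (-0.50 ± 0.11, adjusted p = 0.00294 against WT and -0.48 ± 0.11, adjusted p = 0.00366 against db/+).

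**Figure D2:**
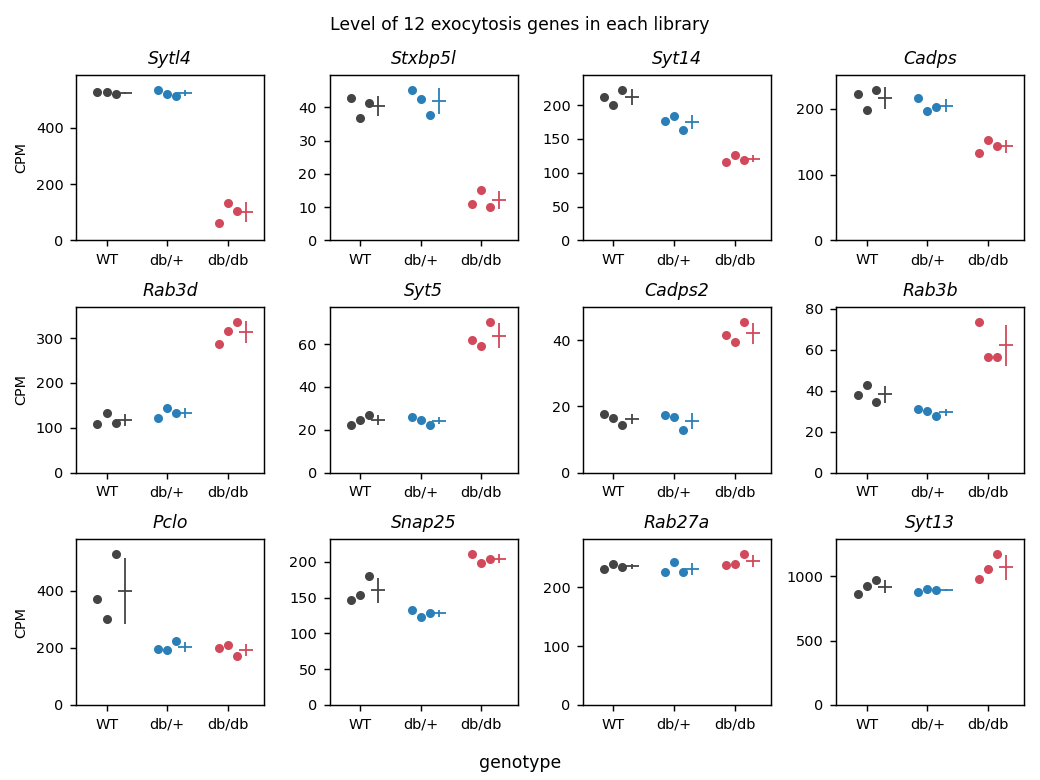
CPM (y axes, each from 0) of 12 exocytosis genes in each of the 9 libraries by genotype (x axis), with points for libraries and a bar for the mean ± SD of 3. The db/db points of Sytl4, Stxbp5l, Syt14 and Cadps lie below all others and those of Rab3d, Syt5, Cadps2 and Rab3b above, while Pclo is high in WT alone.

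Among the 7 priming and active zone genes, 2 rose and 3 fell against WT. The paralogues Cadps and Cadps2, whose CAPS proteins prime dense-core granules, moved in opposite directions. Cadps was at 222, 198 and 229 CPM in the WT libraries, 216, 196 and 202 CPM in the db/+ libraries and 133, 152 and 144 CPM in the db/db libraries. It fell in db/db (-0.60 ± 0.08, adjusted p = 6.27e-05 against WT and -0.52 ± 0.08, adjusted p = 2.14e-04 against db/+). Cadps2 (chromosome 6, 23262773 to 23841175) was at 17.7, 16.3 and 14.5 CPM in the WT libraries, 17.3, 16.9 and 12.8 CPM in the db/+ libraries and 41.4, 39.3 and 45.5 CPM in the db/db libraries. Its level in db/db was 2.59-fold that of WT (1.37 ± 0.13, adjusted p = 1.93e-06) and 2.69-fold that of db/+ (1.43 ± 0.13, adjusted p = 1.51e-06). The ratio of Cadps to Cadps2 per kilobase was 22.4, 21.7 and 28.2 in the WT libraries, 22.3, 20.8 and 28.2 in the db/+ libraries and 5.73, 6.95 and 5.65 in the db/db libraries, so Cadps remained the more abundant of the pair in every library.

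Pclo (chromosome 5, 14514906 to 14863465) encodes piccolo, a very large scaffold of release sites and the longest transcript of the list. It stood at 369, 300.4 and 527 CPM in the WT libraries, 194, 193 and 223 CPM in the db/+ libraries and 199, 209 and 169.9 CPM in the db/db libraries. The 3 WT libraries were above all 6 others, and db/+ and db/db overlapped. Pclo fell in db/db against WT (-1.05 ± 0.19, adjusted p = 0.00173), did not pass against db/+ (-0.08 ± 0.18, adjusted p = 0.763), and fell in db/+ against WT (-0.97 ± 0.18, adjusted p = 0.0444). The last call ended without WT 1 or any 1 db/+ or db/db library (adjusted p between 0.0137 and 0.207 with single libraries removed), and also with a correction for transcript length. The calls of db/db and of db/+ against WT each ended with acinar markers or with Y-linked counts as a term.

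Rims2, which links Rab3 to the priming proteins, was at 98.9, 92.9 and 121 CPM in the WT libraries, 85.6, 90.3 and 92.3 CPM in the db/+ libraries and 62.98, 78.8 and 79.6 CPM in the db/db libraries. It fell against WT (-0.49 ± 0.11, adjusted p = 0.00266) and did not pass against db/+ (-0.27 ± 0.11, adjusted p = 0.0588, called without WT 2 or WT 3, adjusted p between 0.0278 and 0.226 with single libraries removed). Rims1 was near the detection limit in WT (1.35, 0.361 and 0.406 CPM) and db/+ (0.808, 0.675 and 0.653 CPM) and reached 3.57, 1.24 and 3.56 CPM in db/db. It was called higher (1.92 ± 0.51, adjusted p = 0.00833 against WT), with db/db 2 below WT 1, and its fold change is uncertain at this depth. Rims1 was tested at all only through its db/db counts, so this call is not support for a rise. The Munc13 genes Unc13a (0.11 ± 0.13, adjusted p = 0.511) and Unc13b (-0.04 ± 0.11, adjusted p = 0.789), whose proteins open syntaxin for assembly, did not pass against WT. Their means in db/db were 213 ± 42.1 and 182 ± 12.7 CPM (SD, n = 3), against 197 ± 20.2 and 188 ± 25.98 CPM in WT. Unc13a passed against db/+ without db/db 1 (adjusted p = 0.0415).

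Rab GTPases mark granules for transport and docking, and effectors read their GTP-bound state. Of the 6 genes in this role, 2 rose and 2 fell in each db/db comparison. Sytl4 (chromosome X, 133936385 to 133981821), whose product granuphilin binds Rab27a and syntaxin 1A and docks insulin granules, was at 527, 526 and 521 CPM in the WT libraries, 535, 519.8 and 514 CPM in the db/+ libraries and 62.98, 132 and 104 CPM in the db/db libraries. The WT and db/+ libraries fell within a narrow range, and all 3 db/db libraries lay far below it. The level was 5.25-fold lower than in WT (-2.39 ± 0.22, adjusted p = 4.56e-05) and 5.23-fold lower than in db/+ (-2.39 ± 0.22, adjusted p = 4.84e-05). Rab27a, the partner of granuphilin, was at 231, 239.8 and 235 CPM in the WT libraries, 226, 242 and 225 CPM in the db/+ libraries and 238, 239 and 256 CPM in the db/db libraries, with overlapping groups. Its log2 fold change was 0.05 ± 0.07, adjusted p = 0.559 against WT and 0.08 ± 0.07, adjusted p = 0.382 against db/+.

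Rph3al encodes Noc2, an effector of Rab3 and Rab27 needed for regulated secretion in endocrine cells. It was at 81.6, 92.9 and 89.9 CPM in the WT libraries, 87.9, 88.2 and 70.1 CPM in the db/+ libraries and 52.01, 58.1 and 54.8 CPM in the db/db libraries. All db/db libraries lay below the rest (-0.68 ± 0.10, adjusted p = 9.59e-05 against WT and -0.58 ± 0.10, adjusted p = 3.81e-04 against db/+). Rab3 paralogues differed. Rab3a, the best known granule Rab of neurons and beta cells, did not pass (0.03 ± 0.13, adjusted p = 0.876 against WT), with 85.2 ± 17.2 CPM in WT and 86.7 ± 5.08 CPM in db/db (mean ± SD, n = 3). Rab3b was at 37.9, 42.7 and 34.4 CPM in the WT libraries, 30.9, 30.2 and 27.7 CPM in the db/+ libraries and 73.7, 56.5 and 56.5 CPM in the db/db libraries. It rose against WT (0.69 ± 0.11, adjusted p = 3.16e-04) and against db/+ (1.07 ± 0.12, adjusted p = 8.64e-06), while db/+ against WT did not pass (-0.38 ± 0.12, adjusted p = 0.133, called without db/db 1 at 0.0452).

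Rab3d (chromosome 9, 21907491 to 21918199), known from secretory granules of exocrine cells as well as endocrine cells, was at 109, 133 and 111 CPM in the WT libraries, 121, 144 and 134 CPM in the db/+ libraries and 288, 316 and 336 CPM in the db/db libraries. Its level in db/db was 2.66-fold that of WT (1.41 ± 0.10, adjusted p = 1.29e-07) and 2.36-fold that of db/+ (1.24 ± 0.10, adjusted p = 4.66e-07). Summed acinar markers were 44677, 16007 and 16832 CPM in db/db 1, db/db 2 and db/db 3, and their range in WT and db/+ is given above. With acinar markers as a term both calls of Rab3d stayed past the threshold.

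Levels between genes were compared per kilobase of exon. On that scale Syt13 was first with 244 ± 14.04 CPM in WT, followed by Syt14 with 110.1 ± 5.93 and Sytl4 with 102 ± 0.627 CPM (mean ± SD, n = 3). The lowest genes were Rims1 with 0.0972 ± 0.0768, Cplx1 with 0.737 ± 0.505 and Doc2b with 0.906 ± 0.165 CPM per kilobase, of which Cplx1 and Doc2b did not differ beyond their spread. In db/db the order below Syt13 was Rab27a (82.3 ± 3.45), Rab3d (74.7 ± 5.79), Syt4 (73.3 ± 8.74) and Syt14 (62.7 ± 2.78), and Sytl4 had dropped to 19.5 ± 6.80 CPM per kilobase. Rab3d and Syt4 did not differ beyond their spread.

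**Figure D3:**
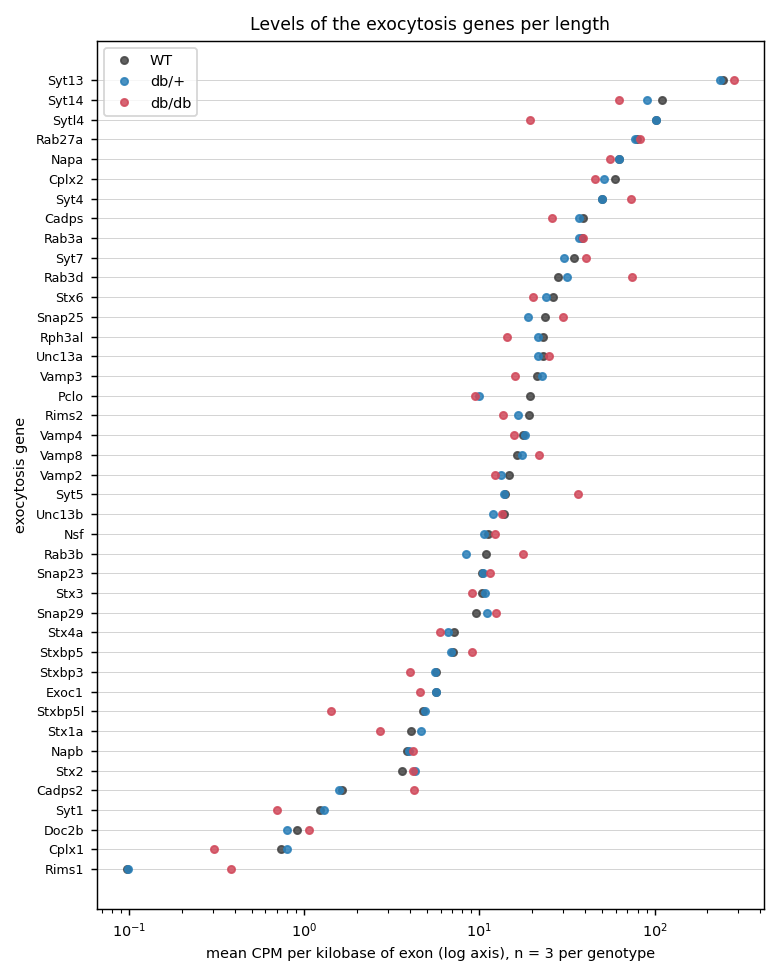
Mean CPM per kilobase of exon (x axis, log scale, n = 3 per genotype) of the 41 exocytosis genes (y axis), ordered by the WT level. Levels span from Rims1 to Syt13, and Sytl4, Rab3d and Syt5 show wide gaps between db/db and the other genotypes.

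Of the 9 calcium sensors and complexins, 3 rose and 2 fell against WT. Syt5 (chromosome 7, 4539765 to 4547541), a calcium-binding synaptotagmin of dense-core granules, was at 22.2, 24.4 and 27.1 CPM in the WT libraries, 25.8, 24.4 and 22.4 CPM in the db/+ libraries and 62.02, 59.2 and 70.4 CPM in the db/db libraries. It was 2.61-fold higher than in WT (1.38 ± 0.10, adjusted p = 2.96e-07) and 2.64-fold higher than in db/+ (1.40 ± 0.10, adjusted p = 2.56e-07), with all db/db libraries apart. Syt4, which does not bind calcium in the usual way and is linked to beta cell maturation, was at 171, 212 and 205 CPM in the WT libraries, 195, 187 and 200.3 CPM in the db/+ libraries and 251, 288 and 319 CPM in the db/db libraries. Every db/db library lay above the other 6 (0.55 ± 0.10, adjusted p = 6.80e-04 against WT and 0.56 ± 0.10, adjusted p = 6.14e-04 against db/+).

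Syt7, the main calcium sensor of insulin release, was at 228, 232 and 261 CPM in the WT libraries, 192, 217 and 223 CPM in the db/+ libraries and 262, 276 and 312 CPM in the db/db libraries. The groups did not overlap and it rose narrowly against WT (0.24 ± 0.09, adjusted p = 0.047). That call was lost on removing db/db 2, db/db 3, db/+ 2, db/+ 3, WT 1 or WT 2 (adjusted p between 0.0246 and 0.225 with single libraries removed). Against db/+ the rise was 0.43 ± 0.09, adjusted p = 0.00202. Per kilobase, the ratio of Syt7 to Syt5 was 2.57, 2.38 and 2.41 in the WT libraries, 1.87, 2.23 and 2.49 in the db/+ libraries and 1.06, 1.17 and 1.11 in the db/db libraries. Syt7 was the more abundant of the pair in WT and db/+ by these lengths, and the db/db ratios lay below all others. In db/db the pair was too close to rank, as the ratio depends on the exon lengths used.

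Syt13 and Syt14 lack the residues that bind calcium. Syt13 was at 866, 922 and 971 CPM in the WT libraries, 881, 903 and 897 CPM in the db/+ libraries and 977, 1058 and 1172 CPM in the db/db libraries. It did not pass against WT (0.22 ± 0.09, adjusted p = 0.0648, called without db/db 1 at 0.0195). It rose against db/+ (0.26 ± 0.09, adjusted p = 0.0328), a call lost on removing db/db 2, db/db 3 or any 1 of the db/+ libraries (adjusted p between 0.0084 and 0.135 with single libraries removed). Syt14 was at 212, 200.01 and 223 CPM in the WT libraries, 177, 183 and 163 CPM in the db/+ libraries and 116, 127 and 118.9 CPM in the db/db libraries. The db/db libraries were the lowest and db/+ lay between (-0.81 ± 0.08, adjusted p = 2.04e-06 against WT and -0.53 ± 0.08, adjusted p = 8.83e-05 against db/+). For db/+ against WT Syt14 did not pass (-0.28 ± 0.07, adjusted p = 0.086).

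Complexins clamp and then aid the assembled SNARE bundle. Cplx2, the more abundant of the pair listed, was at 277, 301 and 297 CPM in the WT libraries, 254, 262 and 243 CPM in the db/+ libraries and 214, 253 and 207 CPM in the db/db libraries. It fell against WT (-0.38 ± 0.09, adjusted p = 0.00297), and against db/+ it did not pass (-0.17 ± 0.09, adjusted p = 0.123, called without db/db 2 at 0.0259). Cplx1 lay between 0.431 and 2.99 CPM in all libraries and did not pass (-1.30 ± 0.62, adjusted p = 0.112 against WT, called without WT 3 at 0.0369). Syt1, the fast calcium sensor of neurons, had 4.67, 7.93 and 4.96 CPM in db/db and 8.65, 15.3 and 6.91 CPM in WT (-0.81 ± 0.36, adjusted p = 0.102, called without WT 3 at 0.0493). Against db/+ Syt1 did not pass (-0.89 ± 0.36, adjusted p = 0.0757, called without WT 2 or db/db 2, adjusted p between 0.0229 and 0.216 with single libraries removed). Doc2b, a high-affinity calcium sensor, was at 5.60 CPM or less in every library and did not pass (0.24 ± 0.30, adjusted p = 0.538 against WT). Doc2b passed against db/+ without db/+ 1 (adjusted p = 0.0371).

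None of the 3 disassembly genes passed against WT. Napa, which encodes the adaptor alpha-SNAP, was at 222, 242 and 245 CPM in the WT libraries, 228, 237 and 245 CPM in the db/+ libraries and 206, 202 and 222 CPM in the db/db libraries. The db/db libraries lay below the others, but the difference did not pass (-0.17 ± 0.07, adjusted p = 0.076 against WT, called without WT 1 at 0.0458). Nsf, the ATPase gene, was at 89.4, 102 and 90.7 CPM in the WT libraries, 85.9, 89.8 and 91.3 CPM in the db/+ libraries and 98.7, 103 and 105 CPM in the db/db libraries. It did not pass against WT (0.12 ± 0.07, adjusted p = 0.192). Against db/+ it rose (0.20 ± 0.07, adjusted p = 0.0411), a call lost on removing db/db 2, db/db 3, WT 3 or any 1 of the db/+ libraries (adjusted p between 0.0364 and 0.128 with single libraries removed), and whose sign turned with library totals as the scale. Napb, which encodes beta-SNAP, was at 26.1, 31.6 and 23.8 CPM in the WT libraries, 31.8, 25.1 and 26.8 CPM in the db/+ libraries and 26.5, 31.8 and 29.5 CPM in the db/db libraries and did not pass (0.11 ± 0.13, adjusted p = 0.521 against WT). Exoc1, a subunit of the exocyst that tethers vesicles, was at 53.6, 50.4 and 50.9 CPM in the WT libraries, 55.1, 52.7 and 47.97 CPM in the db/+ libraries and 42.9, 40.6 and 42.3 CPM in the db/db libraries. Every db/db library was below the other 6 (-0.30 ± 0.08, adjusted p = 0.00944 against WT and -0.31 ± 0.08, adjusted p = 0.00813 against db/+), and both calls ended with the Y-linked counts as a term.

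**Figure D4:**
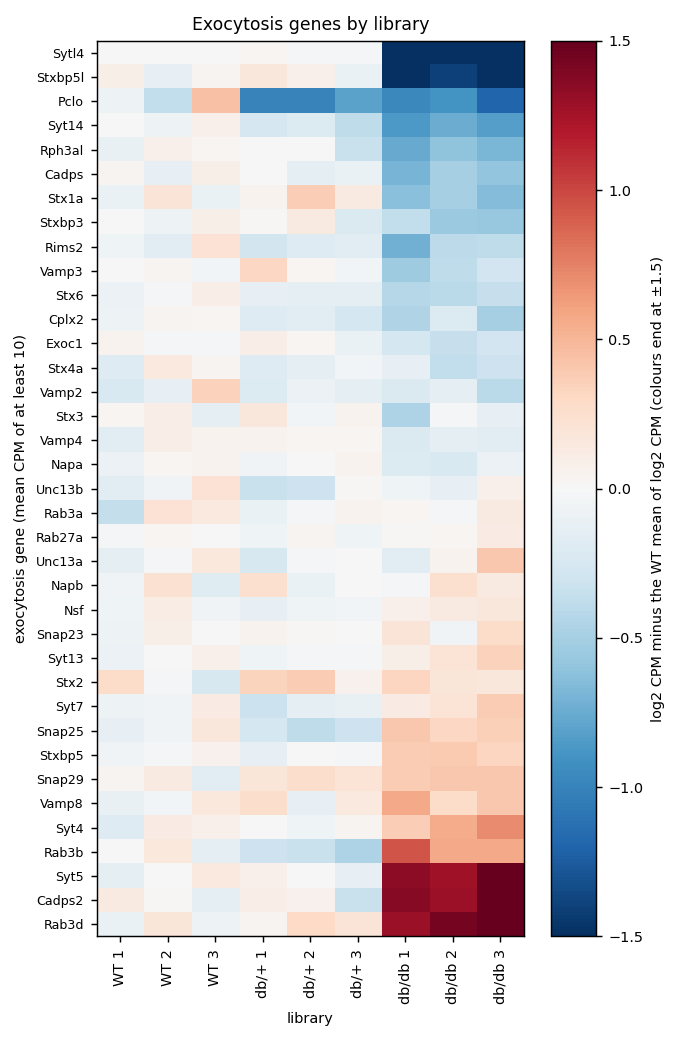
Log2 CPM of the 37 exocytosis genes with a mean of at least 10 CPM (y axis) in each library (x axis), minus the mean of the WT libraries, as colour. The 3 db/db columns share their strongest colours at both ends, and Pclo is low in all 6 db/+ and db/db libraries.

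Other genes of the same machinery, of which 91 were tested, also went both ways, with 24 higher and 24 lower against WT and a median log2 fold change of -0.01. The called share was 52.7%, against 41.7% of all tested genes and 50.7% of those at 10 CPM or more. The 91 genes themselves were not limited to that level. Against db/+ 20 rose and 21 fell (45.1%, where 40.3% of all tested genes and 49.4% of those at 10 CPM or more were called). The counts per list below stand against 21.8% of all tested genes higher and 19.9% lower in db/db than in WT, and none was tested as a list. Of 12 other priming and active zone genes, 7 fell and 0 rose against WT (median -0.26), and 5 fell and 1 rose against db/+. Those that fell against WT included Rims3, a short RIM protein gene (-1.94 ± 0.11, adjusted p = 4.10e-08, from 299 ± 21.6 to 77.8 ± 13.7 CPM), and the scaffold gene Erc2 (-0.98 ± 0.09, adjusted p = 2.84e-06). The remaining 5 were Erc1, Rimbp2, Ppfia1, Ppfia2 and Baiap3.

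Among 19 other SNARE genes, 8 rose and 2 fell. The risen ones included Bet1 (0.72 ± 0.12, adjusted p = 4.61e-04) and Ykt6 (0.43 ± 0.09, adjusted p = 0.00205), which act in transport between the endoplasmic reticulum and the Golgi apparatus, and the fallen ones were the endosomal Stx7 (-0.25 ± 0.09, adjusted p = 0.031) and the vesicle SNARE gene Vamp1 (-0.56 ± 0.21, adjusted p = 0.0435). The call of Stx7 was lost without db/db 3, WT 1 or WT 2 (highest adjusted p 0.134), and that of Vamp1 without WT 1, WT 3 or any 1 db/db library (highest 0.157). With acinar markers as a term the sign of Vamp1 turned. Of 11 other regulators, 3 rose and 4 fell. Stxbp4, which encodes a syntaxin-binding protein, fell (-0.50 ± 0.10, adjusted p = 0.00112). Stxbp6, the gene of amisyn, which competes with VAMP proteins, rose (1.29 ± 0.11, adjusted p = 1.42e-06), as did Napg, the gene of gamma-SNAP (0.24 ± 0.08, adjusted p = 0.0312). The call of Napg was lost without db/db 2, db/db 3, WT 2 or WT 3 (highest adjusted p 0.135).

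Among 13 other synaptotagmins and relatives, 4 rose and 2 fell. Syt9, a calcium sensor of insulin granules, rose (0.92 ± 0.14, adjusted p = 1.29e-04), as did Esyt3 (1.67 ± 0.29, adjusted p = 4.87e-04). The membrane contact gene Esyt1 fell from 239 ± 27.3 to 94.3 ± 10.4 CPM (-1.34 ± 0.10, adjusted p = 2.84e-07), and Syt2 fell too (-1.35 ± 0.12, adjusted p = 1.91e-06). Of 16 other Rab genes, effectors and regulators, 6 rose and 6 fell. Exph5, a Rab27 effector gene, fell (-1.14 ± 0.10, adjusted p = 8.43e-07), as did Mlph, the melanophilin gene (-2.16 ± 0.32, adjusted p = 1.35e-04). The granuphilin relatives Sytl5 (0.53 ± 0.08, adjusted p = 1.31e-04) and Sytl1 (1.15 ± 0.17, adjusted p = 3.01e-04) rose.

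Of 8 other exocyst subunits, Exoc6 rose (0.33 ± 0.11, adjusted p = 0.0278) and Exoc5 fell (-0.25 ± 0.06, adjusted p = 0.00694). The call of Exoc6 was lost without db/db 1, db/db 2, WT 1 or WT 2 (highest adjusted p 0.122). Among 12 synaptic-like vesicle genes, 2 rose and 2 fell. Syngr2 (0.41 ± 0.08, adjusted p = 0.00156) and the synaptophysin gene Syp (0.39 ± 0.12, adjusted p = 0.0166) rose, and Sv2a (-0.64 ± 0.08, adjusted p = 1.83e-05) and Synpr (-0.88 ± 0.16, adjusted p = 5.54e-04) fell. The call of Syp was lost without WT 1 or WT 3 (highest adjusted p 0.0693). Among the named genes of these lists, acinar markers as a term ended the calls against WT of Esyt3, Exoc5, Exoc6, Napg, Stx7, Syngr2, Syp and Vamp1. Y-linked counts as a term ended those of Exoc5, Exoc6, Napg, Stx7, Syp, Vamp1 and Ykt6. The first letter of the sample title as a term ended those of Exoc5, Exoc6 and Stx7. Between db/+ and WT 1 of the 91 changed, the scaffold gene Bsn, at 46.8, 50.1 and 69.8 CPM in the WT libraries, 33.9, 33.3 and 39.7 CPM in the db/+ libraries and 51.7, 53.6 and 59.1 CPM in the db/db libraries (-0.64 ± 0.14, adjusted p = 0.0458), named after its values were seen. That call was lost without any 1 db/+ library, db/db 2, db/db 3, WT 2 or WT 3 (highest adjusted p 0.217). The Bsn call was also lost with acinar markers or the first letter of the sample title as a term. Bassoon, its product, is the large partner of piccolo at release sites.

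Markers of other cell types also differed between the groups. In db/db against WT, 7 of 13 acinar, 6 of 6 duct, 5 of 6 stellate, fibroblast and pericyte, 3 of 5 endothelial and 2 of 6 macrophage markers rose and none fell, while 5 of 6 alpha cell markers fell and 1 rose and 1 of 5 delta and PP cell markers fell. Of 6 beta cell markers 3 fell and 1 rose. Summed duct markers were 281 to 293 CPM in WT, 290.2 to 314 CPM in db/+ and 700 to 1226 CPM in db/db, and summed stellate, fibroblast and pericyte markers 207 to 312, 214 to 333 and 712 to 1910 CPM. Neuron and Schwann cell markers, which matter because neurons share most of this machinery, summed to 130.3 to 171 CPM in WT, 159 to 213 CPM in db/+ and 108 to 138 CPM in db/db. Of their 6 tested genes 2 fell and 1 rose against WT, and no marker was at 0 in all libraries. The part of these cell types in the results was not tested, apart from the acinar term. With it, 5 exocytosis genes were higher and 5 lower in db/db than in WT, and 11 and 10 against db/+, and that fit called 22.2% and 39.1% of all tested genes in these comparisons. The calls against WT lost with it were those of Snap25, Snap29, Stx1a, Stx6, Vamp3, Vamp8, Stxbp3, Rims1, Rims2, Pclo, Rab3b, Syt7, Cplx2 and Exoc1, and those lost against db/+ were Vamp4 and Vamp8. Acinar marker sums in db/db did not overlap those of WT, so this term partly follows genotype. With Y-linked counts as a term the calls of Snap29, Stx1a, Stxbp3, Pclo, Syt4, Syt7 and Exoc1 against WT were lost, and those of Stx6, Vamp4, Vamp8, Stxbp3, Syt4, Syt7, Syt13, Nsf and Exoc1 against db/+. Stx3 passed as lower in both comparisons in that fit, and Rims2 against db/+. The Y-linked fit called 27.9% of all tested genes against WT and 26.2% against db/+. Without WT 1, WT 3 and db/db 1 those of Snap29, Vamp3, Vamp8, Rims2, Syt7 and Exoc1 against WT and of Vamp8 against db/+ were lost. Without db/db 1 and db/db 2 those of Snap29, Stx1a, Vamp3, Vamp8, Rims2 and Exoc1 against WT were lost, and those of Stx6, Vamp4, Vamp8, Nsf and Exoc1 against db/+. Both of these fits leave a group with a lone library, which is assumed to vary like the other groups.

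Sample titles open with the letter G in WT 1, WT 2 and all db/+ libraries and with H in WT 3 and all db/db libraries, and the labels do not say what the letter stands for. The db/db and db/+ groups share no letter, so the letter and the genotype cannot be told apart there without WT. Within H, the log2 ratio of the db/db mean to the single WT 3 library was -2.38 for Sytl4, -1.78 for Stxbp5l, -0.89 for Syt14, -1.45 for Pclo, 1.5 for Rab3d, 1.24 for Syt5 and 1.53 for Cadps2. These directions match those over all WT libraries, but the same db/db libraries and WT 3 enter both, so the match is no independent check. The genes given here are ones with large changes over all WT libraries. Among the genes not called against WT, the sign within H differed for Cplx1, Unc13a and Rab3a. With the letter as a term, the calls of Snap25, Stx1a, Vamp3, Vamp8, Syt7 and Exoc1 against WT were lost. Vamp2 passed as lower in both db/db comparisons in that fit, and Rims2 and Pclo passed as lower against db/+. Of the 23 calls against db/+, 12 were lost in that fit, those of Stx1a, Vamp3, Vamp4, Vamp8, Stxbp3, Stxbp5, Rims1, Syt4, Syt7, Syt13, Nsf and Exoc1. Calls were lost among all genes too. With the letter, 26.3% of all tested genes were called against WT and 12.1% against db/+, and without it 41.7% and 40.3%.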

How the data were processed

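The authors deposited 1 table of raw read counts per gene symbol, without normalisation, for 9 islet libraries. Base calling with bcl2fastq 2.20.0.422 and alignment with TopHat2 2.0.14 on mm10 are named in the submitters' processing notes, and RNA was taken up in Trizol and depleted with Ribo-Zero Gold, per the labels' protocols. For the counting program, its annotation and its strand setting the entry is "not given in the sources used here". Counts may therefore be shared between genes that overlap, antisense partners and close paralogues. A column that matches no sample (1 in all) was not used.

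Genes were filtered with filterByExpr, scaled by TMM, and fitted in edgeR 4.0.16 (R 4.3.3) with a term per group over all 9 libraries (6 residual degrees of freedom, common coefficient of biological variation 0.129). Pairs of groups were compared by the quasi-likelihood F-test on both sides, with Benjamini-Hochberg adjustment over 16826 genes and a threshold of 0.05. Values in parentheses are log2 fold changes ± SE, the latter derived from the F statistic. Levels per kilobase used exonic lengths from GENCODE vM1, built on an older assembly and used for lengths alone (87.3% of tested genes), and positions are those of RefSeq GRCm38.p6. Each length is the union of all annotated exons of a gene, which can exceed the length of the transcript expressed.

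On simulated counts (16493 genes) 38% of genes changed 1.5-fold and 99% of those changed 3-fold were recovered for db/db against WT, with 3.52% of calls false. For db/db against db/+ 29% and 99% were recovered (16493 genes), and for db/+ against WT 47% and 99% (16481 genes). The simulation changed 200 genes and gave every gene the same dispersion. In the data 41.7% of tested genes were called for db/db against WT, so these shares do not give the recovery or the false calls there.

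Alternatives were DESeq2 1.42.0 and its size factors, limma-voom (limma 3.58.1), library totals, other low-count filters, the 2 compared groups alone, a test against a 1.5-fold change, terms for the letter that opens the sample title, for acinar markers (mean log2 of CPM plus 1) or for Y-linked counts, removal of Gm42418 and Lars2, a transcript length correction, and each library left out. The exocytosis genes, the lists and these settings were chosen with earlier results of these data known. By the rule for named genes, values per library were given for up to 4 genes per role with the smallest adjusted p against WT, the most abundant gene of each role and any gene called between db/+ and WT, and from each list of other genes up to 2 risen and 2 fallen were named. A gene that this rule would name is not reported here. Other exceptions are marked or were given as part of a pair or an order of levels. Libraries were numbered in sample order, which pairs none of them. matplotlib 3.10.9 drew the figures.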

Additional observations from a re-analysis of the deposited data

How the results depend on the processing

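No paired analysis was possible because the labels give no replicate numbers. The counts over the 41 exocytosis genes, each of these genes and each other gene named with a test were recomputed under 22 alternatives, with 2 more added after seeing the data, less those that gave no adjusted p for Rims1, Cplx1 or Doc2b. Counts per role and over the other lists were not recomputed. Cadps2, Rab3d, Stxbp5l, Syt5 and Sytl4 kept their calls in both db/db comparisons under all 24, as did Syt14 against WT and Rab3b against db/+. Library totals gave 6 exocytosis genes higher and 20 lower against WT, and 7 and 18 against db/+, where Nsf turned to -0.022 (log2). Over all tested genes they gave 2176 higher and 5317 lower against WT, and 2011 and 5265 against db/+. The test against a 1.5-fold change left 4 higher and 4 lower against WT, 5 and 2 against db/+, and 0 lower between db/+ and WT. It called 10.8%, 9.88% and 0% of all tested genes in these comparisons. With acinar markers as a term the counts against WT were 5 and 5, Vamp1 turned to 0.030 (log2), and 0 were lower between db/+ and WT. The acinar fit called 22.2% of all tested genes against WT and 0.535% between db/+ and WT. The genes higher against db/+ numbered 5 with the title letter as a term and 7 with Y-linked counts. Of the 16826 tested genes, 1007 and 2504 were higher there in these fits. In the comparison of db/+ with WT, 3 were lower without a low-count filter and 3 with DESeq2, and 0 in a fit of these groups alone, with the length correction and in both added fits. Over all genes tested, 524 of 29854 were lower without a low-count filter and 401 of 10170 with DESeq2. From 0 to 2 exocytosis genes were lower in db/+ with a library left out. WT 1, WT 3 and db/db 1 are the libraries with both Xist and Y-linked counts. Without them the median log2 fold change against WT was -0.159 over the exocytosis genes and 1.21e-05 over all tested genes. Without db/db 1 and db/db 2, those with the most Gm42418 and Lars2 counts, these medians were 0.0557 and -0.0228. Each of these 2 added fits leaves 1 library in a group, assumed to vary like the other groups. Depth limits the low genes Rims1, Cplx1 and Doc2b.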
